A study of Mus musculus with 12 samples.

Results

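The 10 genes described here are members of the AP-1 transcription factor family and other immediate-early genes: Jun, Junb, Jund, Fos, Fosb, Fosl2, Egr1, Egr2, Ier2 and Atf3. They were taken by gene name from both gene expression tables, which list 48709 genes each, and all 10 names were found in both. The RNA came from sorted bone marrow cells of mice labelled WT, named in the labels as HSPC, the stem and progenitor cells from which all blood lineages arise. The cells had been transfected with a control miRNA (control miR), miR184 or miR499, and RNA for sequencing was taken 2 days after that. The titles and treatment labels of the treated libraries name miR184 or miR499, whereas their descriptions put the word control before the miRNA, and the groups here follow the titles. So far as the labels go, all groups shared the genotype, the tissue, the cell sorting and the transfection, and differed in the miRNA. The column headers of controls 4 to 6 also carry a tag of digits that the headers of all other libraries lack, those of miR499 included. The meaning of that tag is not stated, and a difference it may mark cannot be told apart from the miRNA. The labels name no sort markers, strain, age of the mice or form of the transfected miRNAs. Controls 1 to 3 stood in the table of miR184 1 to 3 and controls 4 to 6 in the table of miR499 1 to 3, and each treatment was set against the 3 controls beside it.

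AP-1 is a dimer of a Jun protein with a Fos, Jun or ATF protein that binds DNA through a leucine zipper and basic region. Its genes belong to the immediate-early class: cells that meet a growth factor, a cytokine or stress switch them on within minutes through MAP kinases and serum response factor, with no need for new protein. Their messages usually decay fast, because many carry AU-rich elements in the 3' UTR, so a level at a late time point reflects the running state of the cell rather than the first burst. In blood progenitors these genes are known as markers of activation and of handling during isolation, and Junb, Egr1 and Jun are known regulators of progenitor growth and myeloid fate.

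The mature sequences of the miRNAs are shown because their seeds, bases 2 to 8 in capitals, define which 3' UTRs could pair with them. They are the RefSeq entries of the mouse genes on GRCm38.p6, and which arm was transfected is not stated in the labels.
mmu-miR-184-3p: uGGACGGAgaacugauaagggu
mmu-miR-184-5p: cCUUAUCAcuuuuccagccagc
mmu-miR-499-5p: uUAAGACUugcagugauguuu
mmu-miR-499-3p: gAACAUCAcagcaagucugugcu
The hairpin of miR-184 lies on chromosome 9, with its 3p arm at chr9:89802263-89802284 on the minus strand. That of miR-499 lies on chromosome 2, with its 5p arm at chr2:155622893-155622913 on the plus strand. Searched against the annotated 3' UTRs (GENCODE M21), 0 of the 10 genes held a 7-base seed site for miR-184-3p, a site present in 4.91% of 9498 expressed genes. The same count was 0 of 10 for miR-184-5p, against 10.3% of those genes, and 0 of 10 for miR-499-5p, against 17.3%. For miR-499-3p, Egr1 and Atf3 held sites, which makes 2 of 10 against 18.6%. A site was counted if it matched bases 2 to 8, or matched bases 2 to 7 with an A after them. Atf3 held 2 of them, in capitals here: the first is of the second kind, GATGTTA, and the second matches bases 2 to 8.
Atf3 site at chr1:191170523-191170551, minus strand: ctgcattgtggGATGTTAatggcactttt
Atf3 site at chr1:191170416-191170444, minus strand: tgttaaaatccTGATGTTtctgtggaatc
A match describes these letters and does not show pairing in the cells.

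Library totals recovered from the deposited RPKM values (reads scaled by gene length and library total) were lowest in control 6, at 31990355 reads, and highest in control 1, at 46601798. One library of each treated group stood apart. Only 13675 genes had a value above 0 in miR184 3, while the remaining libraries of that table had 16702 to 17136. In miR499 3 the RPKM values of all genes summed to 391857, against 465018 to 483368 in the other 5. Each gene was also set against its own median over the 6 libraries of its table on the log2 scale. For genes in the top 10% of GC content the median of these deviations was 0.59 in miR499 3, against -0.04 to 0.02 in the other libraries. The deviations in miR499 3 correlated with log2 transcript length at r = 0.43, against -0.27 to 0.20 in the other libraries. Of 12 HSPC markers, 9 or 10 reached 1 RPKM in each library, while Mecom and Slamf1 stayed below it in all 12. Kit, the stem cell factor receptor, was at 46.9 to 57.1 RPKM in the miR184 table, at 8.17 to 14.1 in 5 libraries of the miR499 table and at 34.3 in miR499 3. Of 10 lymphoid markers, 4 reached 1 RPKM in miR184 3, Cd3g at 1.43 and Cd79a at 1.66 among them, and 2 in every other library, Nkg7 at 249 to 474 and Cd79b at 18 to 23.6, while Cd3e did not exceed 0.0156. The lymphoid list summed to 277 to 387 RPKM in the miR184 table and to 387 to 498 in the miR499 table. Of 8 stromal and endothelial markers, Pecam1 was at 11.6 to 19.4 RPKM in the miR184 table, at 4.15 to 5.29 in 5 libraries of the miR499 table and at 13 in miR499 3, while Cdh5 and Col1a1 did not exceed 0.0365 in any library. No label states that the replicates are separate mice or separate cultures, and the p-values therefore reflect the spread among these samples alone, part or all of which may be technical. In such bulk RNA, fewer cells of a type and less RNA per cell cannot be told apart.

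Ier2, an immediate-early regulator of transcription, had the highest level of the 10 in every library, at 48.2 ± 2.41 RPKM (SD, n = 3) in controls 1 to 3 and 33.0 ± 1.07 (n = 3) in controls 4 to 6. Junb and Fos came next. Junb was at 14.6 ± 1.09 and 9.26 ± 0.863 RPKM in the 2 sets of controls, and Fos at 8.58 ± 0.674 and 11.9 ± 0.563. Jun was at 6.70 ± 0.632 and 4.80 ± 0.498. Atf3 was at 3.10 ± 0.811 and 3.20 ± 1.28, and its range overlapped those of Jun and Jund in controls 4 to 6. Egr1, Fosl2 and Jund lay near 1 RPKM in controls 1 to 3, with overlapping ranges for Fosl2 and Jund, and Fosb and Egr2 were below 0.3 RPKM in every control. As RPKM is scaled to gene length, these levels may be set against each other.

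**Figure D1:**
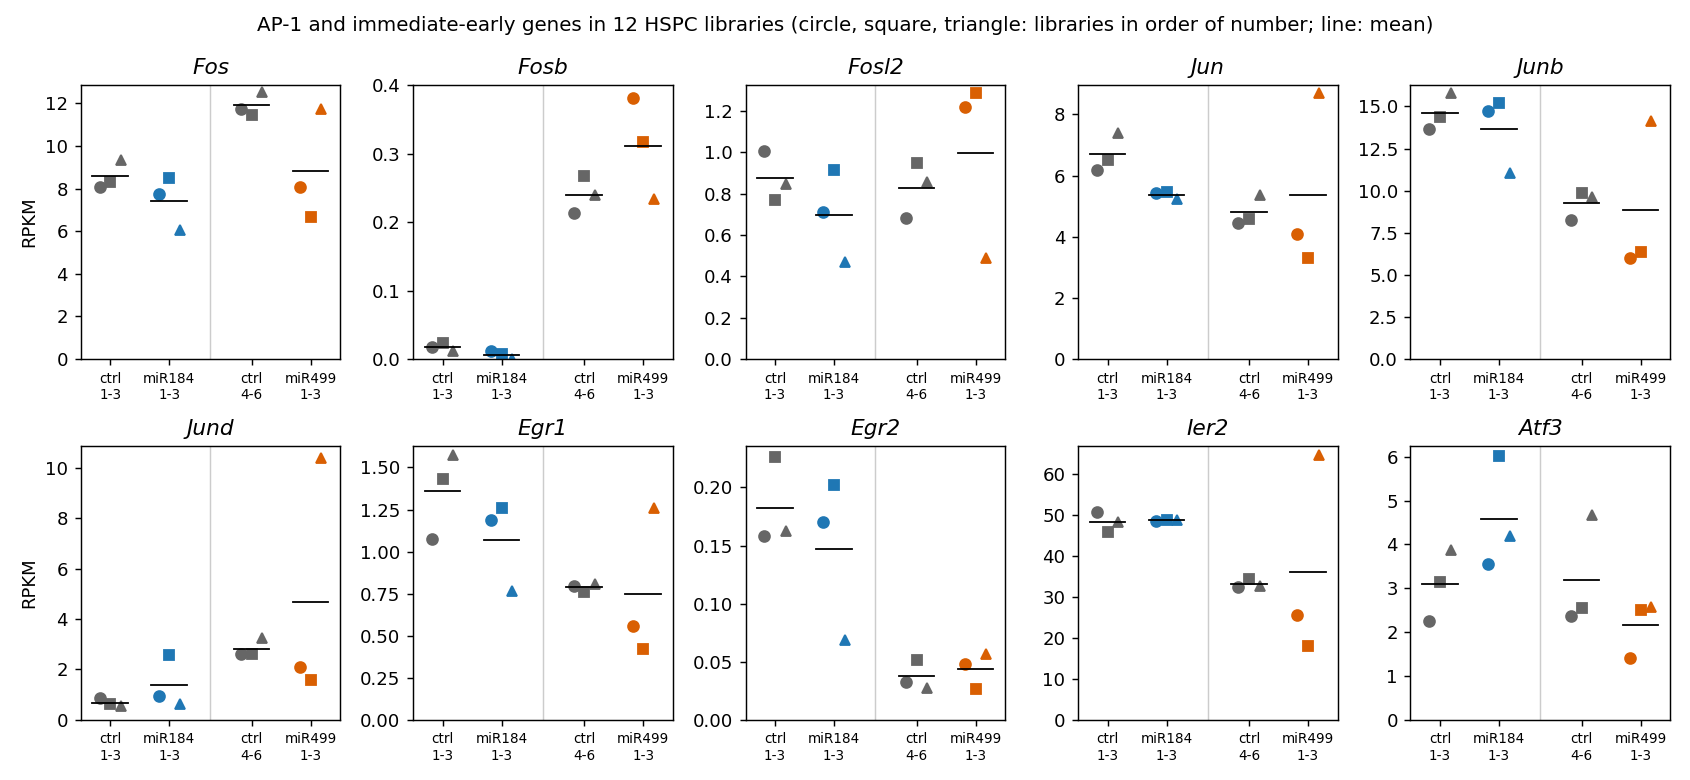
RPKM of each of the 10 genes in the 12 libraries, with circle, square and triangle for the libraries of a group in order of number and a line at the group mean; controls 1 to 3 and miR184 stand left of the grey line, controls 4 to 6 and miR499 right of it. The triangle of miR499 is far above the other miR499 libraries for Jun, Junb, Jund, Egr1 and Ier2, and Fosb is near 0 in all libraries of the miR184 table.

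The Jun genes encode the obligate partners of the dimer. Jun (chr4:95049034-95052222, minus strand, GRCm38), Junb (chr8:84974484-84978718, minus strand) and Jund (chr8:70698949-70700616, plus strand) each have a single exon. In the miR499 table Jun was at 4.46, 4.56 and 5.37 RPKM in controls 4, 5 and 6 and at 4.10, 3.31 and 8.70 in miR499 1, 2 and 3. Junb, which often restrains the growth-promoting action of Jun, was at 8.27, 9.88 and 9.62 RPKM in those controls and at 6.01, 6.38 and 14.1 in the miR499 libraries. Jund, the member that is usually present in resting cells, was at 2.60, 2.62 and 3.24 RPKM in controls and at 2.11, 1.58 and 10.4 with miR499. For all 3 genes, miR499 1 and 2 lay below every control and miR499 3 above every control, so the groups overlapped. With all 6 libraries the log2 change was 0.05 ± 0.30 (SE) for Jun, -0.15 ± 0.30 for Junb and 0.24 ± 0.53 for Jund, and none passed at an adjusted p under 0.05 (limma on log2(RPKM + 1), adjusted p from 0.821 to 0.950). The sign of the change of Jun turned to -0.02 when the libraries were scaled by the median ratio. Without miR499 3 Junb was lower by -0.51 ± 0.10 on the log2 scale and passed, with an adjusted p of 0.0163 in limma. Without that library Jund gave -0.43 ± 0.13 with an adjusted p of 0.0513 in limma, and Jun gave -0.30 ± 0.12 with an adjusted p of 0.107.

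The Fos proteins cannot pair with each other and act only through a Jun partner. Fos (chr12:85473890-85477273, plus strand, 4 exons) was at 11.7, 11.5 and 12.5 RPKM in controls 4, 5 and 6, and at 8.07, 6.66 and 11.7 in miR499 1, 2 and 3. The first 2 treated libraries were below all controls, and miR499 3 lay within the control range. The log2 change was -0.43 ± 0.20 with an adjusted p of 0.496 in limma, and -0.63 ± 0.10 with an adjusted p of 0.0110 without miR499 3. Fosb (chr7:19302696-19310051, minus strand) and Fosl2 (chr5:32135801-32157842, plus strand) were below the filter of a mean of 1 RPKM and were not tested. Fosb was at 0.213, 0.267 and 0.240 RPKM in controls, from 36, 46 and 29 reads, and at 0.381, 0.317 and 0.234 with miR499, from 62, 53 and 37 reads. Fosl2, also known as Fra-2, was at 0.683, 0.950 and 0.854 RPKM in controls and at 1.22, 1.28 and 0.486 with miR499. The order of the libraries was opposite to that of Fos and the Jun genes, with no test for these low genes: miR499 1 and 2 lay above every control, and miR499 3 was inside the control range for Fosb and the lowest of the 6 libraries for Fosl2.

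Egr1 and Egr2 encode zinc finger factors that share one GC-rich binding motif. Egr1, on chromosome 18, was at 0.792, 0.759 and 0.809 RPKM in controls 4, 5 and 6, and at 0.555, 0.423 and 1.26 in miR499 1, 2 and 3, which repeats the order seen for the Jun genes. Its mean over the 6 libraries was below 1 RPKM, so it was not tested there. Egr2 (chr10:67535475-67542188, plus strand) was close to the limit of detection in this table, with 5, 8 and 3 reads in controls and 7, 4 and 8 reads with miR499, where a count of 0 would allow up to 3 reads by counting error alone. No difference was detectable for Egr2 at this depth.

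Ier2 (chr8:84661331-84662852, minus strand, 1 exon) spread the most in absolute terms. It was at 32.3, 34.2 and 32.5 RPKM in controls 4, 5 and 6 and at 25.5, 18 and 64.5 in miR499 1, 2 and 3. The controls lay close together, whereas miR499 3 was at 2.53 times the higher of the other 2 treated libraries. The log2 change was -0.09 ± 0.42 with an adjusted p of 0.930 in limma. Without miR499 3 it was -0.60 ± 0.13 with an adjusted p of 0.0188. Atf3 (chr1:191170296-191218039, minus strand, 4 exons), a stress-induced factor that pairs with Jun proteins and represses many targets, was at 2.37, 2.56 and 4.67 RPKM in controls and at 1.41, 2.51 and 2.57 with miR499. The ranges overlapped, the log2 change was -0.39 ± 0.26 (limma, adjusted p 0.552), and unlike the Jun genes Atf3 was not raised in miR499 3. Its value without that library was -0.49 ± 0.24 with an adjusted p of 0.171 in limma.

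Counted together, 0 of the 6 tested genes passed for miR499 with all 6 libraries, as did 0 of 9815 genes (0%). Limma voom on the recovered reads also gave 0 genes, and at an unadjusted p under 0.05 limma on RPKM gave 992 genes (10.1%) and 0 of the 6. The log2 change was negative for 4 of the 6, against 50.9% of all genes, with a median of -0.12 against -0.01. Without miR499 3, Fos, Junb and Ier2 passed, 3 of 6, and all 6 had a negative log2 change, with a median of -0.50. In that comparison 1681 of 9815 genes (17.1%) passed, 1340 of them lower (13.7%), 58.7% of all genes had a negative change and the median over all genes was -0.06. The test without miR499 3 rests on 2 treated libraries and 3 controls. Leaving out miR499 1 or miR499 2 instead gave 0 genes and 0 of the 6 in limma, with 450 genes (4.58%) and 2212 genes (22.5%) at an unadjusted p under 0.05. Under median-ratio scaling and without miR499 3 the same 3 genes passed, against 14.0% of all genes. Without miR499 3 the treated and control ranges did not overlap for 8 of the 10 genes, 5 of them tested, against 52.0% of 9815 genes. In each of those 5 both treated values were lower, against 34.1%. With all 6 libraries the ranges overlapped for all 6 tested, while they were separate for 24.2% of genes. The library miR499 3 was the highest of its table for 6 of the 10 genes and for 4 of the 6 tested, against 51.0% of all genes tested.

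**Figure D2:**
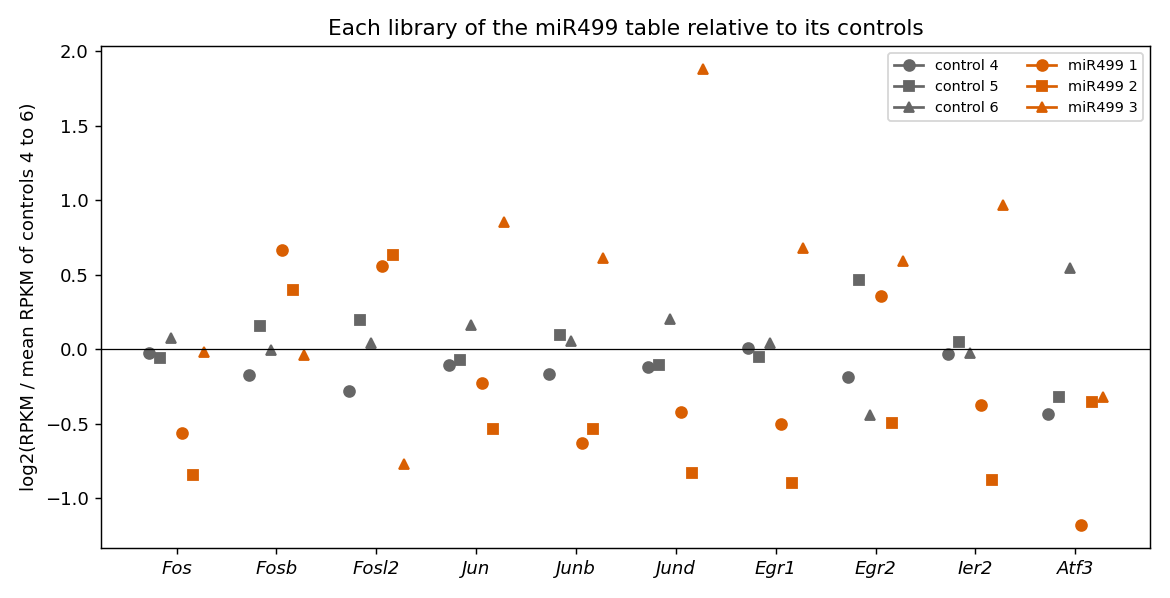
Log2 ratio of each library of the miR499 table to the mean of controls 4 to 6, by gene (grey controls, orange miR499). Points of miR499 1 and 2 lie below 0 for Fos, Jun, Junb, Jund, Egr1, Ier2 and Atf3 and above 0 for Fosl2 and Fosb, and miR499 3 stands at 10.4 RPKM, far above the 2.60 to 3.24 of the controls, for Jund.

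The 4 tested genes that were highest in miR499 3, Jun, Junb, Jund and Ier2, are also the single-exon genes of the set. Their GC content was 55.5%, 62.6%, 67.1% and 60.9%, at or above the 82.4th percentile of genes tested in that table, whereas Fos and Atf3, at 51.9% and 52.2%, lay at the 64.2nd and 65.6th. Egr1 and Egr2, untested in that table, were also highest in miR499 3, Egr2 from 8 reads. Each has 2 exons, and their GC content was 57.3% and 51.4%. Fosb and Fosl2, also untested there, have 4 exons each and a GC content of 56.0% and 53.1%. They were not highest in miR499 3, which lay inside the control range for Fosb and was the lowest library for Fosl2. All 10 genes were above the median GC content of 49.3% among expressed genes, and 4 of 10 had a single exon, against 6.42%. When the linear trend of each library on GC content and transcript length was removed, the log2 change over all 6 libraries was -0.43 ± 0.15 for Fos, -0.28 ± 0.17 for Junb, -0.16 ± 0.31 for Ier2, -0.08 ± 0.17 for Jun and 0.07 ± 0.34 for Jund, and 0 of 6 passed in limma. With the same trend removed and miR499 3 left out, 4 of 6 passed, with Jund added at an adjusted p of 0.0405 in limma, against 1847 of 9544 genes (19.4%). The part of GC content and gene structure in the level of these genes in miR499 3 was not tested beyond that correction.

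Some markers of other cell types also passed without miR499 3, where 17.1% of all genes did, 13.7% lower. Of 8 tested neutrophil markers 2 were lower, Mpo and Ngp, and of 8 tested monocyte and macrophage markers Lyz2 was lower and Cx3cr1 higher. The summed level of the 9 monocyte and macrophage markers found was 2991 to 3675 RPKM in controls 4 to 6 and 2448, 2569 and 2584 in miR499 1, 2 and 3. Most of that sum was Lyz2, at 2341 to 3022 RPKM in these controls and at 1751, 2003 and 1867 with miR499. The sum thus follows Lyz2 and not the whole list. Of the 8 tested markers, 6 had a negative and 2 a positive log2 change with all libraries. The summed level of the 10 neutrophil markers was 6600 to 7941 RPKM in those controls, 6629 and 6924 in miR499 1 and 2, and 10690 in miR499 3. Of 9 tested HSPC markers, Kit and Gata2 were higher and Cd34 lower. In miR499 3 itself Mpo, at 3992 RPKM, and Cd34, at 91.1, lay above controls 4 to 6, and Cx3cr1, at 3.12, lay below them. Those markers thus went the other way there, while Ngp, Lyz2, Kit and Gata2 kept their direction. None of 6 tested mast cell and basophil markers, 2 lymphoid, 8 erythroid and megakaryocyte and 1 stromal or endothelial marker passed. With all libraries 0 markers of any list passed for either miRNA in limma. The part of these cell types in the levels of the 10 genes was not tested.

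With miR184 no change of the 10 genes passed the test. Jun was at 6.18, 6.52 and 7.40 RPKM in controls 1, 2 and 3 and at 5.42, 5.45 and 5.24 in miR184 1, 2 and 3. Every treated library was below every control, an event seen for 4.41% of 10372 genes in this direction and 11.7% in either. The log2 change of Jun was -0.27 ± 0.09, with an unadjusted p of 0.0176 and an adjusted p of 0.793 in limma, so it did not pass over all genes. Leaving out single libraries kept it between -0.32 and -0.21. Junb was at 13.6, 14.4 and 15.8 RPKM in controls and at 14.7, 15.2 and 11.1 with miR184, and Jund at 0.875, 0.618 and 0.539 in controls and at 0.931, 2.56 and 0.640 with miR184. Of the treated libraries miR184 2 stood highest for Jund, with 168 reads against 39 to 68 in controls. Through that library alone Jund reached the filter of a mean of 1 RPKM, so its test and its place among the 7 genes tested rest on the group in which it was high. Their log2 changes were -0.10 ± 0.12 and 0.42 ± 0.28, and neither passed in limma.

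Fos was at 8.07, 8.31 and 9.34 RPKM in controls 1 to 3 and at 7.74, 8.49 and 6.05 in miR184 1 to 3, a log2 change of -0.19 ± 0.12. Egr1 was at 1.07, 1.43 and 1.57 RPKM in controls and at 1.19, 1.26 and 0.766 with miR184, a change of -0.19 ± 0.15. Both groups overlapped, and the low value in each treated group was that of miR184 3. Ier2 was the steadiest gene, at 50.6, 45.8 and 48.2 RPKM in controls and at 48.5, 48.8 and 48.7 with miR184. Its log2 change was 0.02 ± 0.05, a value whose sign changed to -0.03 once the GC and length trend was removed. Atf3 was at 2.26, 3.15 and 3.88 RPKM in controls and at 3.56, 6.02 and 4.18 with miR184. Control 3 lay above the lowest treated library, miR184 1, while controls 1 and 2 lay below every treated one, and the change was 0.44 ± 0.20 with an unadjusted p of 0.0643 and an adjusted p of 0.827 in limma.

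Below the filter, Fosl2 was at 1.01, 0.767 and 0.845 RPKM in controls and at 0.708, 0.915 and 0.468 with miR184. Egr2, with 25, 35 and 24 reads in controls and 25, 27 and 10 with miR184, overlapped as well. Fosb had 3, 4 and 2 reads in controls and 2, 1 and 0 with miR184, too few for a comparison. Of the 7 tested genes 0 passed, as did 0 of 10372 genes (0%) in limma on RPKM and in limma voom on recovered reads, and 1 of 7 against 475 genes (4.58%) had an unadjusted p under 0.05. The log2 change was negative for 4 of the 7, against 49.4% of all genes, and its median was -0.10, against 0.00. The library miR184 3 was the lowest of its table for 7 of the 10 genes and for 4 of the 7 tested, against 35.9% of all genes tested. Without it the changes were 0.03 ± 0.07 for Junb, -0.07 ± 0.08 for Fos, -0.08 ± 0.11 for Egr1 and 0.65 ± 0.24 for Jund, and 0 of 7 passed in limma, where 722 genes (6.96%) had an unadjusted p under 0.05.

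**Figure D3:**
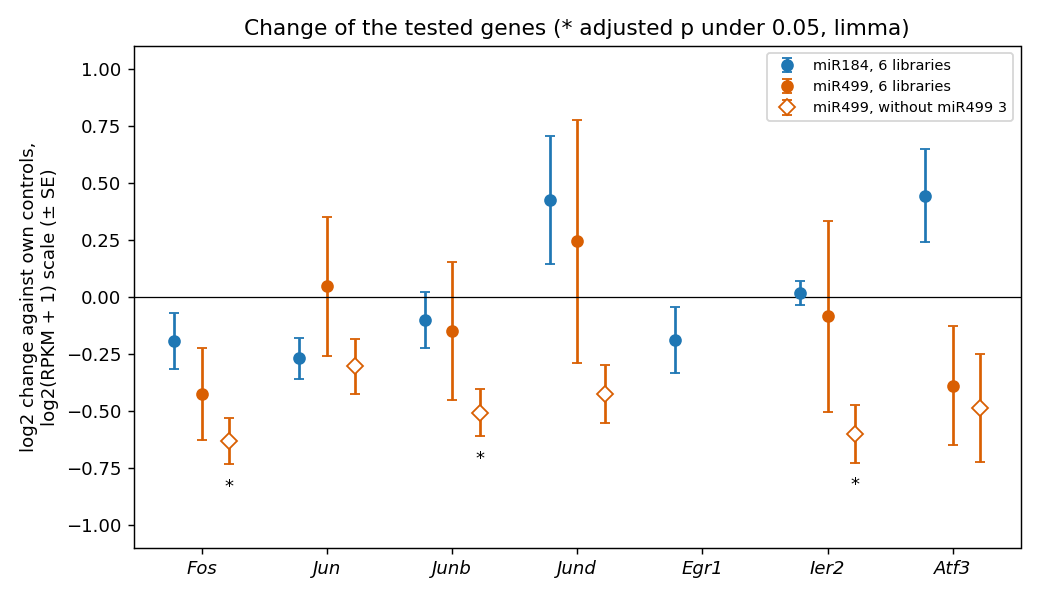
Log2 change against the controls of the same table, on the log2(RPKM + 1) scale with standard errors, for the genes that passed the filter: miR184 with 6 libraries (blue), miR499 with 6 libraries (filled orange) and miR499 without miR499 3 (open orange). Only the open points of Fos, Junb and Ier2 carry the asterisk of an adjusted p under 0.05, at -0.63, -0.51 and -0.60.

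The effects of the miRNAs were then compared with each other in one fit of 12 libraries, as the effect of miR499 minus that of miR184. Atf3 differed the most, by -0.83 ± 0.35 on the log2 scale, though its treated and control ranges overlapped in both tables. Controls 4, 5 and 6 were at 2.37, 2.56 and 4.67 RPKM, against 1.41, 2.51 and 2.57 with miR499. Without control 6 the log2 change of Atf3 with miR499 was -0.15. The unadjusted p of the difference for Atf3 was 0.0366 and its adjusted p 0.538 in limma. The differences were 0.32 ± 0.33 for Jun, -0.18 ± 0.65 for Jund, -0.23 ± 0.25 for Fos, -0.10 ± 0.46 for Ier2 and -0.05 ± 0.35 for Junb. Of these 6 genes 0 passed, as did 0 of 10214 genes (0%), of which 931 (9.11%) had an unadjusted p under 0.05; voom was not run for this contrast. Without miR499 3, Ier2 passed at -0.62 ± 0.15 (limma, adjusted p 0.0323), 1 of 6 against 7.72% of genes. Without miR184 3 and miR499 3, Jund, Ier2, Fos and Junb passed, at -1.08, -0.62, -0.56 and -0.54 with adjusted p from 0.0215 to 0.0415 in limma, against 11.6% of genes. A difference between the effects on these 4 genes therefore rests on which libraries entered the fit. Without miR184 3 and miR499 3, the treated miR184 libraries left for Jund were miR184 1 and 2, at 0.931 and 2.56 RPKM. Controls 1 to 3 were at 0.539 to 0.875, so the -1.08 of Jund rests in part on miR184 2 alone.

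The 2 sets of controls were themselves far apart for several of the genes. The tables were normalized separately and no test was made between them, and over 10214 genes the control ranges were separate for 85.5%. Fosb was 13.7-fold higher in controls 4 to 6 than in controls 1 to 3, from 111 reads against 9. Egr2 was 4.87-fold higher in controls 1 to 3, from 84 reads against 16. For these genes all 6 libraries of one table lay apart from all 6 of the other, miRNA included, as for 47.4% of genes. Jund was 4.16-fold higher in controls 4 to 6, at 2.82 ± 0.366 against 0.677 ± 0.176 RPKM, where 0.735% of 10207 genes were at least 4-fold higher in that direction. Fos was 1.39-fold higher in controls 4 to 6. Egr1, Junb, Ier2 and Jun were 1.73-, 1.58-, 1.46- and 1.40-fold higher in controls 1 to 3, while Fosl2 and Atf3 overlapped. The median gene differed by -0.38 on the log2 scale, lower in controls 4 to 6, and the genes in the top 10% of GC content by -0.54, while Jund, with the highest GC content of the 10, was higher in controls 4 to 6. The part of GC content in these differences was not tested.

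The mix of Jun genes differed with the table as well. In controls 1 to 3 Junb made up 65.9% to 66.8% of the summed RPKM of Jun, Junb and Jund, Jun 29.8% to 31.2% and Jund 2.27% to 4.23%. In controls 4 to 6 the shares were 52.8% to 57.9%, 26.7% to 29.5% and 15.3% to 17.8%. The share of Jund in controls 4 to 6 was thus above that of every library of the miR184 table, where miR184 2 was the highest at 11%. With miR499 the sum of the 3 genes was 12.2 and 11.3 RPKM in miR499 1 and 2, against 15.3 to 18.2 in controls, and Jund made up 17.2% and 14.1% of it. In miR499 3 the sum was 33.2 RPKM and the share of Jund 31.3%.

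Among Fos, Fosb and Fosl2, Fos held 88.7% to 92.9% of the summed RPKM in all 6 controls. It held 83.4% in miR499 1 and 80.6% in miR499 2, where Fosl2 held 12.6% and 15.6%, against 5.40% to 7.49% in controls 4 to 6. In miR499 3 the share of Fosl2 was 3.90%, below those controls. With miR184 the share of Fos, 90.2% to 92.8%, overlapped that of controls 1 to 3. No test was made on these shares.

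**Figure D4:**
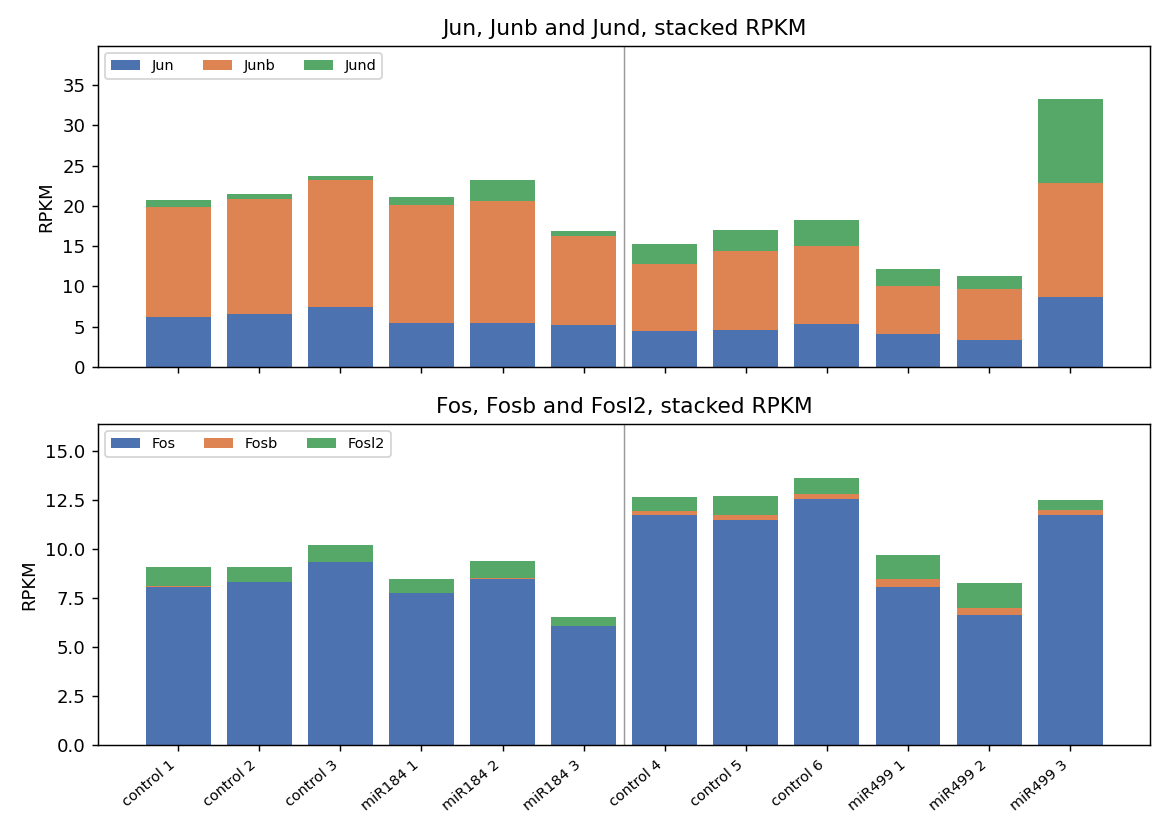
Stacked RPKM of Jun, Junb and Jund (top) and of Fos, Fosb and Fosl2 (bottom) in each library, with the miR184 table left of the line. Jund fills 31.3% of the top bar of miR499 3, and the bottom bars of miR499 1 and 2 are shorter than those of controls 4 to 6, with a larger part from Fosl2.

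Across the 12 libraries, centred within each table, several of the genes varied together, Fosl2 and Fosb ran against them, and Atf3 and Egr2 followed neither closely. Pearson's r was 0.90 between Junb and Egr1, 0.88 between Ier2 and Jun and 0.86 between Junb and Jun. Fosl2 and Fosb correlated with each other at 0.73, and with Ier2 at -0.74 and -0.59. The r of Atf3 was 0.09 with Jun, 0.13 with Ier2 and 0.35 with Jund, and that of Egr2 was 0.13 with Ier2, 0.27 with Jun and 0.60 with Egr1. Fosb had only 0 to 4 reads per library in the miR184 table, and Egr2 only 3 to 8 in the miR499 table. The r of each therefore rests mainly on the other table. These values describe 12 libraries that share tables and normalization, and the library miR499 3 carried part of them. Without miR499 3 the r of Jund with Jun went from 0.69 to 0.06, that of Ier2 with Jun from 0.88 to 0.63 and that of Junb with Egr1 from 0.90 to 0.83, while that of Junb with Fos went from 0.80 to 0.91. Of 6542 other genes with a mean of at least 5 RPKM, the most like the mean profile of the 6 genes tested in both tables were Coq8b, Pisd, Aagab, Aen and 1110008L16Rik, with r from 0.96 to 0.97 over 12 libraries and from 0.92 to 0.95 without miR499 3. Coq8b, for example, was at 4.66, 5.33 and 5.09 RPKM in controls 4, 5 and 6 and at 3.90, 3.53 and 6.83 in miR499 1, 2 and 3, the same order of the miR499 libraries as for Ier2.

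No other gene of the pathway lists passed with all libraries. Among 13 other AP-1 subunits, 8 were tested in each table, with a positive log2 change for 4 with miR184 and 6 with miR499. Batf, which pairs with Jun proteins in place of Fos, was at 36.0, 36.1 and 39.4 RPKM in controls 4 to 6 and at 27.8, 27.3 and 27.5 with miR499. Its 3 treated libraries lay below all controls, miR499 3 included, as for 12.8% of 9815 genes. Its log2 change was -0.42 ± 0.11 with an adjusted p of 0.491 in limma, and without miR499 3 it was the 1 of 8 that passed, against 17.1% of all genes, at -0.42 ± 0.08 with an adjusted p of 0.0126. Mafg, a small Maf protein, gave 0.36 ± 0.23 with miR499. Fosl1, or Fra-1, was at 3.10, 3.28 and 3.23 RPKM in controls 1 to 3 and at 3.98, 4.87 and 5.0 with miR184. Its 3 treated libraries lay above all controls, where 11.7% of 10372 genes had separate ranges in either direction. The change of Fosl1, 0.41 ± 0.10, had an unadjusted p of 0.00474 and an adjusted p of 0.460 in limma. Atf7 gave 0.11 ± 0.09 with miR184.

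Of the kinases and cofactors that switch on these genes, 21 were tested in each table and 0 passed with all libraries. For miR499, 15 of 21 had a positive log2 change, with a median of 0.16 against -0.01 over all genes. Without miR499 3, 3 of 21 passed, against 17.1% of all genes: Map2k3, a kinase that activates p38, and Rps6ka1, the kinase RSK1, were lower at -0.48 ± 0.07 and -0.36 ± 0.09, and Mkl1, a cofactor of serum response factor, was higher at 0.40 ± 0.11. With all libraries Mkl1 gave 0.77 ± 0.31 (limma, adjusted p 0.491). Rps6ka1 was at 19.0, 22.1 and 20.2 RPKM in controls, at 15.3 and 16.0 in miR499 1 and 2 and at 58.5 in miR499 3. With miR184, Mapk14 (p38 alpha) gave 0.53 ± 0.17, with an adjusted p of 0.793 in limma. Ep300, a coactivator of AP-1, gave 0.40 ± 0.17 with miR499.

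Feedback inhibitors include genes that shut the response down by removing phosphate from MAP kinases or by degrading AU-rich messages. Of that list 14 and 12 genes were tested in the miR184 and miR499 tables. Of these 11 and 9 had a positive log2 change, and 0 passed with all libraries. Without miR499 3, 2 of 12 passed, a share near the 17.1% of all genes. Dusp1, a MAP kinase phosphatase that is itself an immediate-early gene, was at 9.49, 9.39 and 7.86 RPKM in controls, at 4.97 and 6.19 in miR499 1 and 2 and at 9.51 in miR499 3, with a log2 change of -0.59 ± 0.12 without the last. Zfp36l1, which binds AU-rich elements and promotes decay, was higher at 0.36 ± 0.11, from 3.0, 2.60 and 2.96 RPKM to 4.15 and 3.76. Its relative Zfp36l2 gave 0.43 ± 0.16 over all libraries (limma, adjusted p 0.491). Nfkbia, the inhibitor of NF-kappaB, was at 52.0, 41.9 and 58.8 RPKM in controls 1 to 3 and at 37.0, 36.4 and 36.6 with miR184, with a change of -0.45 ± 0.11 and an adjusted p of 0.478 in limma. It gave -0.27 ± 0.14 with miR499. Dusp5 gave 0.78 ± 0.26 with miR184 (limma, adjusted p 0.807), at 2.34, 3.77 and 1.43 RPKM against 1.48, 0.790 and 0.727 in controls. The mean of its controls was just under the filter of 1 RPKM, so its test rests on the group in which it was high.

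The remaining immediate-early genes and targets did not move in one direction. Of 16 other immediate-early transcription factors, 11 and 10 were tested, with 7 positive log2 changes in each, and 0 passed with or without miR184 3 and miR499 3. Nfil3 gave 0.82 ± 0.20 and Nr4a1 0.49 ± 0.39 with miR184, and without miR184 3, where Nr4a1 was at 4.92 RPKM against 0.878 to 1.27 in the other 5, the latter was -0.01 ± 0.11. Srf, serum response factor, gave 0.67 ± 0.26 with miR499. Klf2 gave 0.36 ± 0.24 with miR499, but reached the filter only through that group, at 1.39, 0.55 and 2.02 RPKM against 0.811, 0.844 and 0.592 in controls. Of 10 tested immediate-early effectors, Ier5 and Pim1 passed without miR499 3, 2 of 10 against 17.1% of all genes, and were higher, at 0.39 ± 0.11 and 0.48 ± 0.13, and over all libraries Ier5 gave 0.44 ± 0.14 and Btg2 -0.28 ± 0.14. Pim1 was at 2.56 RPKM in miR499 3, below the 4.83 to 6.62 of controls. With miR184, Btg1 gave 0.38 ± 0.09 and Sgk1 0.41 ± 0.10, with adjusted p of 0.437 and 0.460 in limma. Of 11 tested genes known as AP-1 or EGR targets, Plaur, the urokinase receptor, was lower without miR499 3 at -0.42 ± 0.09, 1 of 11 against 13.7% of all genes. It was below its controls in 3 of 3 miR499 libraries, as were 12.8% of 9815 genes. Vim and Hmox1 gave 0.21 ± 0.05 and 0.43 ± 0.17 with miR184, and Vim 0.31 ± 0.16 with miR499, with adjusted p of 0.410, 0.827 and 0.505 in limma.

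Heat shock genes, used here as a sign of handling stress, were tested for 9 genes in each table and 0 passed with all libraries. Without miR499 3, Hspa5, Hspa8 and Dnaja1 were lower, 3 of 9, against 13.7% of all genes. Hspa8 was at 438, 449 and 431 RPKM in controls, at 371 and 311 in miR499 1 and 2 and at 660 in miR499 3, the order of the Jun genes. Dnaja1 was instead lowest in miR499 3, at 44.1 RPKM against 69.9 to 79.5 in controls, and gave -0.51 ± 0.16 with all libraries (limma, adjusted p 0.491). Hsp90aa1 gave 0.13 ± 0.06 with miR184 and 0.28 ± 0.16 with miR499, and Hsp90ab1 0.07 ± 0.05 with miR184. The part of handling stress in the levels of the 10 genes was not tested.

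Some sequence features of the genes, which the choice by name did not use, were counted as well. The pentamer ATTTA, the core of AU-rich elements, was found in the 3' UTR of 9 of the 10, against 69.2% of expressed genes, and 5 held at least 3 copies, against 37.0%. The longer form TATTTAT was found in 6 of 10, against 28.5%. Fosl2 held 8 copies of ATTTA in 4653 bases, Fos and Jun 4 each in 815 and 1233 bases, Egr2 and Atf3 3, Junb and Egr1 2, Fosb and Jund 1, and Ier2 none. The windows of Fos and Jun are shown, with the pentamers in capitals, as genes with 4 copies each from either side of the dimer, and in Fos the 2 copies overlap.
Fos, chr12:85477090-85477119, plus strand: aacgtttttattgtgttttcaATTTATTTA
Jun, chr4:95049210-95049239, minus strand: gtgatcATTTAtaatcataggaaagATTTA
Of the genes that were lower without miR499 3, Fos held 4 copies, Junb 2 and Ier2 0. The part of these elements in the levels was not tested.

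RefSeq promoters, 250 bases before to 50 after the start on GRCm38.p6, were given for 8 of the 10 genes, Egr1 and Ier2 not among them. Both strands were searched for 5 motifs. The CArG box, which binds serum response factor, was found in Egr2 alone, at 2 starts of the gene, against 1.81% of genes. The EGR motif GCGNGGGCG was found in Fosb and Fosl2, 2 of 8 against 6.27%. These windows are shown with the motif in capitals as the matches to a factor of the immediate-early response, serum response factor in Egr2 and EGR in Fosb and Fosl2.
Egr2, chr10:67537484-67537513, plus strand: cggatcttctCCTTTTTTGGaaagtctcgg
Egr2, chr10:67537787-67537816, plus strand: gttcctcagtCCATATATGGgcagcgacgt
Fosb, chr7:19310077-19310105, minus strand: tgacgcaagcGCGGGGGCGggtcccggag
Fosl2, chr5:32136383-32136411, plus strand: ccggctgcgcGCGGGGGCGgaagggcgcg
The TATA motif TATAAA was found in Fos and Junb, 2 of 8 against 15.7%. The AP-1 motif TGANTCA and the CRE motif TGACGTCA were found in 0 of 8, against 8.97% and 2.03%, which says only that these letters are not in these windows.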

How the data were processed

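A PicoPure kit gave RNA from the sorted cells, and Illumina libraries were sequenced, per the labels' protocols. The authors deposited RPKM values per gene, per the file headers, in 2 tables with 3 treated and 3 control libraries each; per the submitters' processing notes the build was mm10. For the aligner, counter, annotation and strand setting, the sources used here give nothing, and overlapping or antisense genes may share reads. Groups and replicate numbers came from the sample titles, from which the descriptions differ in some numbers and in the word control before the miRNA of treated libraries, and the number of unused columns of per-sample values was 0. Reads were recovered from the steps of the RPKM values: of the values above 0, 100% came out whole within 0.01 reads, and the totals they gave set the depth. Counting limits (3 reads for a count of 0) cover counting error only.

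Each miRNA was compared, two-sided, with the controls in the same table in limma 3.58.1 (R 4.3.3, intensity trend) on log2(RPKM + 1), for genes with a mean of at least 1 RPKM over the 6 libraries, and a gene passed if its p, adjusted over all genes tested (Benjamini-Hochberg), was under 0.05. This scale understates changes of low genes, and 3 against 3 libraries cannot go below p = 0.1 in an exact permutation test. The difference of the effects was fitted on all 12 libraries. The test was checked on simulated data. The 10 genes and the 14 gene lists were chosen with earlier results of these data known. The genes named are the 10, the 2 tested genes of each list with the smallest p per comparison, and the 5 genes most like the mean profile. A gene that this rule names and a marker are not reported here. Of the marker lists only counts, sums, defining markers and genes that passed without miR499 3 are given; these markers and the other pathway genes that passed without it were named after their values were seen. GENCODE M21 (GRCm38, which is the mm10 assembly) gave positions, GC content and 3' UTRs, and its symbols matched 96.3% of genes above 0. RefSeq gave miRNA and promoter sequences. GC content was known for 97.3% and 97.2% of the genes tested. Alternatives covered the pseudocount, the filter, the scaling, voom on recovered reads, a 12-library fit, replicate blocks and single libraries left out; a GC and length correction was added after the data were seen. Python 3.11.15, numpy 2.4.6, pandas 2.3.3 and matplotlib 3.10.9 were used.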

Additional observations from a re-analysis of the deposited data

How the results depend on the processing

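For miR184 the genes passing numbered 0 with all libraries and 0 to 2 with single libraries left out (2 without control 1), 2 with the replicate block by title number, and 3 with the GC and length trend removed and miR184 3 left out; none was among the 10 genes. For miR499 the count was 0 with all libraries and 0 to 1681 with single libraries left out, 1376 (910 lower) without miR499 3 under median-ratio scaling and 1847 (1141 lower) without it and without the GC and length trend, with 0 to 3, 3 and 4 of the 6 tested members. For the difference of the effects it was 1 without the filter, 0 to 789 with single libraries left out (1 without control 1), and 1187 without miR184 3 and miR499 3, with 0 to 1 and 4 members. Only results that leave out miR499 3 gave a call among the 10 genes.

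The title numbers did not pair the miR184 samples with their controls (r of same-numbered deviations from -0.05 to 0.06). The replicate block by description number in the miR499 table covers 2 pairs, without control 6 and miR499 3, with 1 residual degree of freedom before pooling. This pairing gave 424 genes and 2 members, Ier2 and Fos, with values of -0.23 for Jun and -0.35 for Jund. No numbers pair samples across the tables.

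Of the results for single members, 245 kept sign and call, 16 kept the sign and gained a call, and 30 changed sign. Among the sign changes, Jund with miR499 also gained a call with the GC and length trend removed and miR499 3 left out. With single libraries left out, the log2 change ran from -0.020 to 0.051 for Ier2 and from -0.18 to 0.034 for Junb with miR184. With miR499 it ran from -0.30 to 0.28 for Jun, -0.43 to 0.64 for Jund, -0.60 to 0.29 for Ier2 and -0.51 to 0.046 for Junb. For the difference it ran from -0.048 to 0.55 for Jun, -1.08 to 0.22 for Jund, -0.62 to 0.28 for Ier2 and -0.54 to 0.15 for Junb, the low ends for Jun, Jund and Junb coming without miR184 3 and miR499 3. Sign changes under other settings were -0.027 and -0.040 for Ier2 with miR184 (GC and length trend removed, and miR184 3 left out too) and 0.024 for Junb with miR184 (median-ratio scaling without miR184 3). For Jun with miR499 they were -0.021 (median-ratio scaling), -0.27 (with miR499 3 left out), -0.079 (GC and length trend) and -0.30 (that trend without miR499 3), and for Jund -0.40 and -0.43 under the same left-out settings. The cause was not tested. Fosb, Fosl2 and Egr2 were below the filter in both tables and Egr1 in the miR499 table, so their values, from 62 reads or fewer for Fosb and Egr2, are given as descriptions.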
